A study of Mus musculus with 22 samples.

Results

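A set of 10 genes best known from glia was followed through single retinal neurons: Clu, Glul, Slc1a3, Apoe, Rlbp1, Car2, Dkk3, Sparc, Gfap and Aqp4. They were chosen by name, as genes of Müller glia and astrocytes, and all 10 of them were found among the 18194 genes of the array that carry a single symbol. Together they have 26 of the 45101 probe sets, the sets of short probes that are each read as a single signal. Of the 10 genes, 7 reached a signal of 1000, called detected here, in at least 1 of 22 cells. P0 photoreceptor H1 held the most, with 5, and the other P0 photoreceptor, E1, held none, while E1 also lacked 2 of 6 housekeeping genes that H1 held.

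Müller glia are the radial support cells of the retina, and retinal astrocytes lie along the ganglion cell axons. Müller glia take up glutamate released by neurons and turn it into glutamine, recycle visual pigment, buffer ions, acid and water, and secrete lipid carriers. They arise late, from the same progenitors as rods, and share many transcripts with those progenitors, so that several genes named glial are also known from dividing retinal cells and some from neurons.

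The series profiled single mouse retinal cells on Affymetrix arrays, and each cell was named only after profiling. Its labels describe retinas dissociated with papain, cells picked one by one, and cDNA amplified by 35 cycles of PCR. The cells comprise 3 photoreceptors (1 adult rod and 2 of P0, H1 and E1), 13 ganglion cells, the output neurons (E12.5, 3 cells; E13.5, 1 cell; E14.5, 2 cells; E15.5, 3 cells; P0, 4 cells), and 6 amacrine cells, inhibitory interneurons (1 of E16.5 and 5 of P0). The labels name the CD1 strain for 9 cells and no strain for 13, and no genotype, treatment, animal or litter. Cells of a type and stage were therefore averaged into 1 sample each, 9 in all. A single array is 1 cell, and low RNA content and failed amplification cannot be told apart from absence.

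Between 1518 and 4352 genes were detected per cell, with a median of 2997. The adult rod and E16.5 amacrine cell J6 stood apart, with median signals over all probe sets of 192.1 and 197.7, against at most 79.1 in any other cell. Read against marker lists, photoreceptor markers were detected at 11 of 12 measured in the adult rod, 10 in H1 and 8 in E1. No ganglion or amacrine cell held more than 2. Since the cells were named after profiling, these counts are not an independent check of the names. Photoreceptor E1 also held Pcp2 at 30957 and Cabp5 at 9001 of the bipolar list, and Gad1 at 15552 of the amacrine list. Lens genes were detected at 5 of 7 in each ganglion cell of E14.5 and at 1 of 7 in that of E13.5. Signals are given on the authors' linear scale, with log2 values after raising signals under 200 to a floor of 200 (log2 7.64).

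A promoter sequence was available for 6 of the 10 genes (GRCm38.p6). Those of Glul, Rlbp1 and Slc1a3 are shown because these genes had the most unlike distributions, Glul spread over most neurons, Rlbp1 and Slc1a3 each in a single cell. The 250 bases before the transcription start of that promoter are printed 5′ to 3′ on the gene's strand, with capitals for a CCAAT box (CCAAT) or a TATA box (TATAAA), on either strand. For Rlbp1 this start lies inside the gene, which reaches to base 79392250 in RefSeq.
Glul (chr1:153899679-153899928, plus strand): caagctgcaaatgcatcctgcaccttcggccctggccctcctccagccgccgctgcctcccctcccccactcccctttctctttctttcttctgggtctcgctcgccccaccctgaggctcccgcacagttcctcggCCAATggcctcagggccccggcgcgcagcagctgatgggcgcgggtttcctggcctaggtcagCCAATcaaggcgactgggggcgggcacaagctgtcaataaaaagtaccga
Rlbp1 (chr7:79387028-79387277, minus strand): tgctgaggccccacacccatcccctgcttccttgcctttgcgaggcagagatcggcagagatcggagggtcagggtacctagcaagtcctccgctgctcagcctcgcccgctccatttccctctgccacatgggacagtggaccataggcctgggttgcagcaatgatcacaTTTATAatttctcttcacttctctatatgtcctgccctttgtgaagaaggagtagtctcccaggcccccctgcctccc
Slc1a3 (chr15:8710808-8711057, minus strand): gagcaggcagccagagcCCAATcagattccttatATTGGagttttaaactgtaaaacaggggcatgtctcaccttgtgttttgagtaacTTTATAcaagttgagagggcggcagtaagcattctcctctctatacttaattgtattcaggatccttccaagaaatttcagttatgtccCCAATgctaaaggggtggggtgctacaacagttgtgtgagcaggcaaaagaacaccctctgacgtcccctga
A CCAAT box was present in 33.9% and a TATA box in 12.4% of all 32851 promoters over the same length. None of the 3 promoters held the letters TAATCC (a site of Crx and Otx factors, in 6.25% of promoters), ACAATG (Sox factors, 10.7%) or TTGGCA (a half-site of nuclear factor I, 12.3%). Among the 6 genes with a promoter, Apoe, which is not shown, held each of these over its several starts.

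Photoreceptor H1 carried 5 of the 10 genes, where 16.8% of all genes were detected in that cell. Clu stood at a signal of 8963, Glul at 9896, Rlbp1 at 8157, Car2 at 11224 and Dkk3 at 13196, ranks 305 to 722 among the 18194 genes of the cell. The same 5 genes lay at 113, 80.8, 99.1, 141 and 128 in P0 photoreceptor E1, where none of the 10 genes and 12.3% of all genes were detected. E1 also had 4 of 6 measured housekeeping genes, with Actb at 25.5 and Tpt1 at 126, against 6 of 6 in H1. Its mean log2 over that list, 12.34, was the lowest of the 22 cells, against 14.31 to 16.69 in the others, and the part of RNA quality in its missing glial genes was not tested. The genes on H1 cover lipid transport, glutamine synthesis, retinoid binding, acid balance and secretion, while the glutamate transporter Slc1a3, the lipid carrier Apoe, the matrix protein Sparc, the filament Gfap and the water channel Aqp4 were below the floor there, between 5.12 (Gfap) and 110 (Sparc). The count of 5 did not change at a detection signal of 500 or 2000, with any probe set, or after quantile normalization.

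The adult rod held 2 of the 10 genes, Clu at 246123 and Car2 at 1393, where 13.8% of all genes were detected. Clu was its gene of rank 142, whereas Car2 ranked 1518. After quantile normalization, which gives all arrays the same distribution of signals, Clu was at 36160 and Car2 at 3736 in the rod, and Gfap, at 959 as deposited, was at 1055. A Glul probe set that did not stand for the gene read 1366 in the rod, and the one that did read 434. Signals near the detection level in this cell lie on an array with a raised median, and the part of that in these values was not tested.

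**Figure D1:**
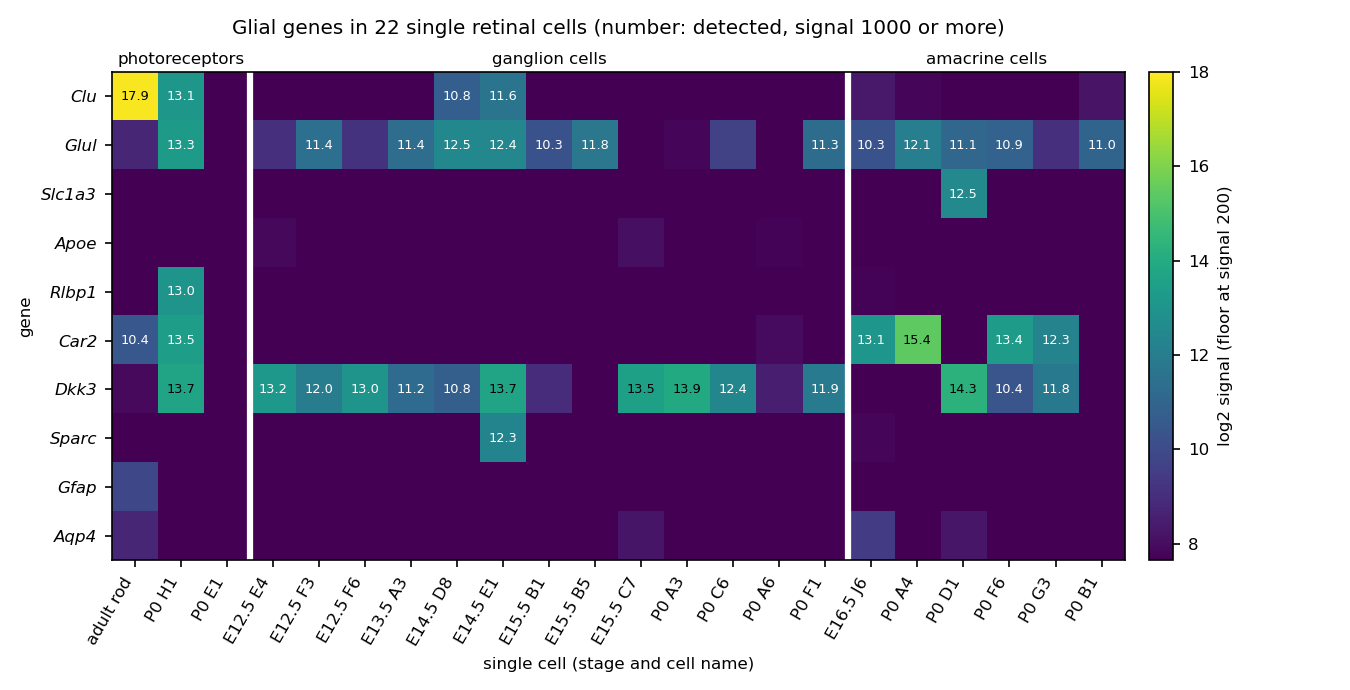
Log2 signal (color, floor at 7.64) of the 10 glial genes, in rows, in the 22 cells, in columns, with the value printed where the gene was detected. Photoreceptor H1 shows 5 printed values, the adult rod 2 with Clu at 17.9, and photoreceptor E1 none.

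Over the 22 cells, 2 held none of the genes (P0 photoreceptor E1 and P0 ganglion cell A6), 8 held 1, 7 held 2, 3 held 3, 1 held 4 and 1, H1, held 5. The cell with 4 was ganglion cell E1 of E14.5, which detected 22.7% of all genes, and its genes were Clu, Glul, Dkk3 and Sparc. Each of 3 cells held 3 genes: ganglion cell D8 of E14.5 (17.1% of all genes detected), amacrine cell D1 of P0 (11.2%) and amacrine cell F6 of P0 (22.7%). Ganglion cell F1 of P0 had the most detected genes, 4352, and 2 glial genes, while H1 had 3056. Dkk3 was the single member in ganglion cells E4 and F6 of E12.5 (14.6% and 19.8% of all genes detected) and C7 of E15.5 (8.34%), and Glul and Car2 were the 2 in amacrine cell J6 (20.4%).

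**Figure D2:**
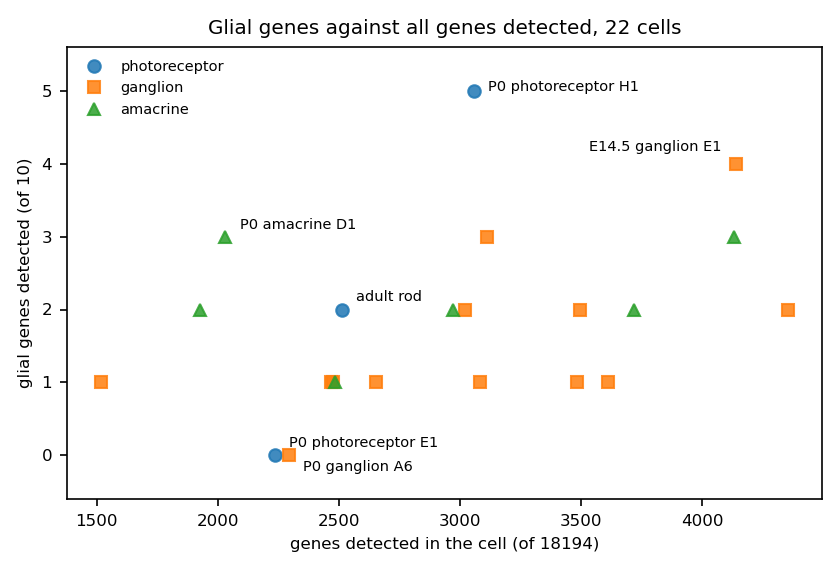
Number of the 10 glial genes detected in each cell (vertical axis) against the number of all genes detected in it (horizontal axis), by cell type. H1 has 5 at 3056 genes, E14.5 ganglion cell E1 has 4 at 4137, and 2 cells lie at 0.

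Clu encodes clusterin, a secreted chaperone and lipid carrier also called apolipoprotein J. Its signal was 246123 in the adult rod, 8963 in H1 and 113 in E1. In the 13 ganglion cells it ran from 9.44 through a median of 109 to 3201, and in the 6 amacrine cells from 28.0 through 184 to 326. The 2 high ganglion cells were those of E14.5, D8 at 1732 and E1 at 3201, which also held the lens genes named above, so the part of lens transcripts in these values was not tested. All 4 probe sets of Clu agreed in the rod, H1 and E1 of E14.5, and 3 of 4 in D8. The rod was higher than H1 by 19.1 to 27.5 times over these 4 probe sets as deposited. After quantile normalization the probe set that stands for Clu read 36160 in the rod and 11173 in H1, or 3.24 times higher in the rod. By type and stage, the order of mean log2 levels was 17.91 in the adult rod, 11.20 ± 0.63 in ganglion cells of E14.5 (SD over 2 cells) and 10.39 ± 3.88 in P0 photoreceptors (SD over 2 cells), and the last 2 did not differ beyond their spread. Every other type and stage was at 8.35 or below.

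**Figure D3:**
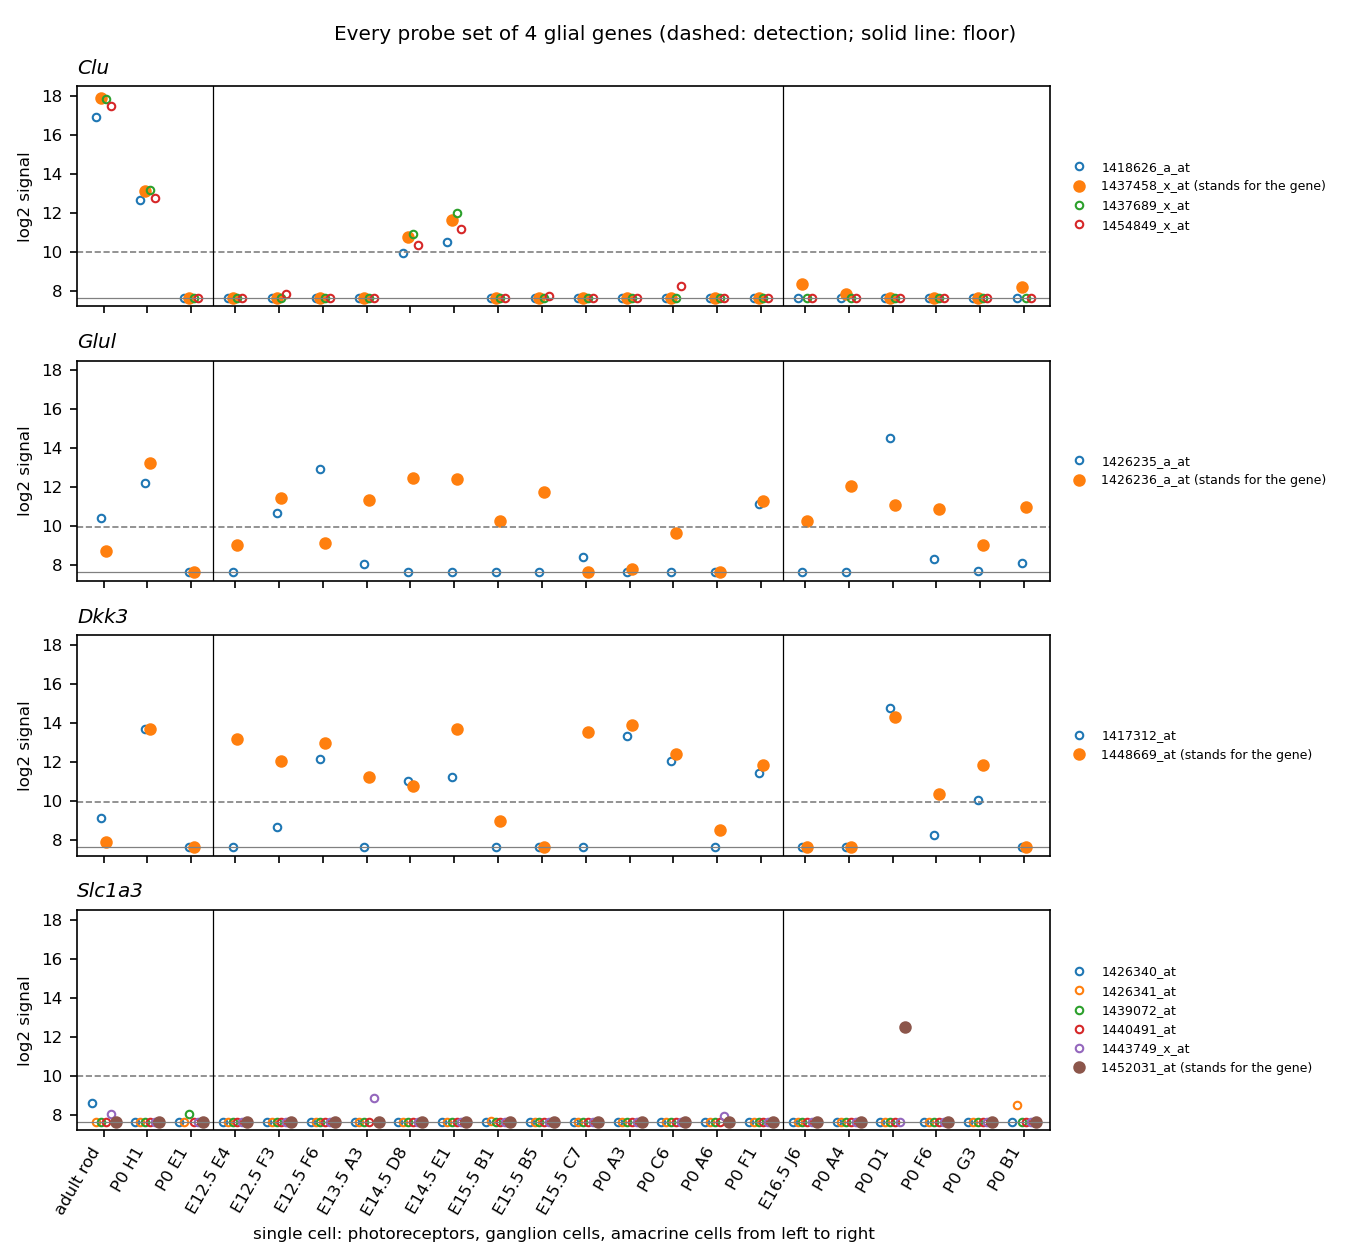
Log2 signal of every probe set of Clu, Glul, Dkk3 and Slc1a3 (panels) in each cell, with the filled point for the probe set that stands for the gene. Clu probe sets lie together in every cell that held the gene, and 1 of 6 Slc1a3 probe sets rises, to 12.5 in amacrine cell D1.

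Photoreceptors were set against the mean of ganglion and amacrine cells to ask whether these genes separate the neuron types. Clu entered this test through the photoreceptors: 3 cells had to reach 1000, and 2 did outside them, so its passing is given as a description. Its mean log2 signal was 14.15 in photoreceptors, against 8.36 in ganglion and 8.07 in amacrine cells, a difference of 5.94 ± 1.35 (standard error; adjusted p = 0.00175 in limma, 2 against 5 and 2 samples). That error comes from the variance trend over all genes, not from the spread of Clu between its own samples. Of all 7184 tested genes 2.12% passed in this contrast, 1.5% higher and 0.612% lower in photoreceptors, so that 71.1% of the calls were higher (44.9% after quantile normalization). Without the adult rod the difference was 2.17 (adjusted p = 0.681 in limma), and without amacrine cell J6 it was 6.07 with an adjusted p of 0.067 in limma. It also lost the call with gene-wise variances (adjusted p = 0.391), without the trend of eBayes (0.0519), with the median over cells (0.138), with the mean over probe sets (0.114) and with no filter on dim genes (0.333). Over all alternatives other than leaving out single cells the difference ran from 4.67 to 6.16 and its adjusted p from 0.000465 in limma to 0.391 with gene-wise variances.

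Rlbp1 encodes CRALBP, the cytosolic retinaldehyde carrier of Müller glia and pigment epithelium. Its single probe set reached 8157 in H1, against 211.6 in the next highest cell, E16.5 amacrine cell J6. Of all genes 13.6% were detected in 1 cell alone, and H1 had 125 such genes. Rlbp1 was not among the genes tested, since it was detected in fewer than 3 cells. Of 9 measured pigment epithelium genes H1 held 1, Pmel at 5204, with Rpe65, Ttr and Tyrp1 undetected. Photoreceptor E1, without Rlbp1, also held 1, Dct at 14446, and the adult rod held 2, Mitf at 171899 and Ttr at 1315. The part of pigment epithelium RNA in Rlbp1 was not tested.

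Car2, carbonic anhydrase 2, speeds the interchange of carbon dioxide and bicarbonate. It was detected in the adult rod at 1393 and in H1 at 11224, and lay at 141 in E1. In the 13 ganglion cells it ran from 4.91 through a median of 37.0 to 248, and in no ganglion cell was it detected. In amacrine cells it was 8684 in J6 of E16.5 and 43862, 10535, 4900, 133 and 13.2 in A4, F6, G3, B1 and D1 of P0. Amacrine cells thus fell into 4 that held Car2 and 2 that did not, and those 2 lay within the range of the ganglion cells. The mean log2 signal was 7.66 in ganglion cells, against 12.18 in amacrine cells, a difference of -4.52 ± 1.31 (adjusted p = 0.276 in limma). Car2 entered the test through the amacrine cells, since 2 cells outside them reached 1000, so its values here are given as a description. The difference was the tenth in size among 7184 genes, of which 0.0696% passed, 0.0418% higher and 0.0278% lower in ganglion cells (60% of the calls higher, and 40% after quantile normalization). The adjusted p was 0.0335 in limma with no filter on dim genes and 0.0478 with gene-wise variances. Over all alternatives other than leaving out single cells the adjusted p ran from 0.0335 to 0.718. Leaving out single cells, the difference ran from -4.97 to -3.61.

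Glul, glutamine synthetase, makes glutamine from glutamate and ammonia and is a standard marker of Müller glia. It was detected in 13 of 22 cells: 1 of 3 photoreceptors, 7 of 13 ganglion cells and 5 of 6 amacrine cells. Signals were 434 in the adult rod, 9896 in H1 and 80.8 in E1, which makes H1 the highest cell of the 22. Ganglion cells ran from 10.9 through a median of 1229 to 5739, and amacrine cells from 525 through 1974 to 4283. The 2 ganglion cells of E14.5 gave the highest values of that type, 5739 in D8 and 5519 in E1. Of the P0 ganglion cells F1 read 2517, C6 814, A3 229 and A6 10.9.

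The 2 probe sets of Glul often disagreed. The second set was detected in 6 cells, and its highest reading was 23360 in amacrine cell D1, where the set that stands for the gene read 2154. Both were detected together in 4 cells (E12.5 ganglion cell F3, P0 ganglion cell F1, D1 and H1) and only 1 of them in 11 cells. Glul means were 9.61 in photoreceptors, 10.54 in ganglion cells and 10.54 in amacrine cells. Its differences were -0.93 ± 1.43 for photoreceptors (adjusted p = 0.778 in limma) and -0.00 ± 1.45 for ganglion minus amacrine cells (adjusted p = 1 in limma), and both took either sign over the alternatives.

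Slc1a3, the glutamate aspartate transporter GLAST, clears glutamate at Müller glia and is also known from retinal progenitors. It was detected in 1 cell, P0 amacrine cell D1, at 5856, and its next highest reading by the same probe set was 178.6, in E13.5 ganglion cell A3. The other 5 probe sets stayed under 1000 in every cell. Amacrine cell D1 was also the highest of the 22 cells for Dkk3, at 19987, and lacked Car2, at 13.2. It held 4 of 10 amacrine markers, where 11.2% of all genes were detected. Of 16 other Müller glia genes it held 4, with Vim at 21439 and Car14 at 7827. Vim was detected in 14 of the 22 cells. Of 17 progenitor and gliogenic genes it held 4, Ccnd1 at 24917, Fgf15 at 11958, Lhx2 at 8987 and Zfp36l1 at 4190. Sox9 (28.15), Sox2 (4.35), Hes5 (11.34), Notch1 (199) and Nes (47.4) were among the genes of these lists undetected in D1. Cell D1 also held 1 of 8 bipolar markers, Prkca at 32610, the highest of the 22 cells. Of 10 ganglion markers it held 2, Sncg at 11947 and Nefm at 3950.

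Dkk3, a secreted protein of the Dickkopf family, was detected in 14 cells, the most of the 10 genes, although by any probe set Glul reached 15. It read 242 in the adult rod, 13196 in H1 and 128 in E1. Ganglion cells held it in 10 of 13, from 86.7 through a median of 4197 to 15559, and amacrine cells in 3 of 6, from 24.5 through 744 to 19987. By stage it was detected in all 3 ganglion cells of E12.5, in the E13.5 cell, in both cells of E14.5, in 1 of 3 at E15.5 and in 3 of 4 at P0. Its 2 probe sets were both detected in 9 cells, and 1 alone in 5. The mean log2 signal was 11.59 in ganglion cells, against 9.0 in amacrine cells, and the difference of 2.59 ± 1.46 did not pass (adjusted p = 0.999 in limma). For photoreceptors the difference was -1.0 ± 1.44 (adjusted p = 0.761 in limma). The sign turned without the adult rod, at 0.37, and without E1, at 0.51.

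**Figure D4:**
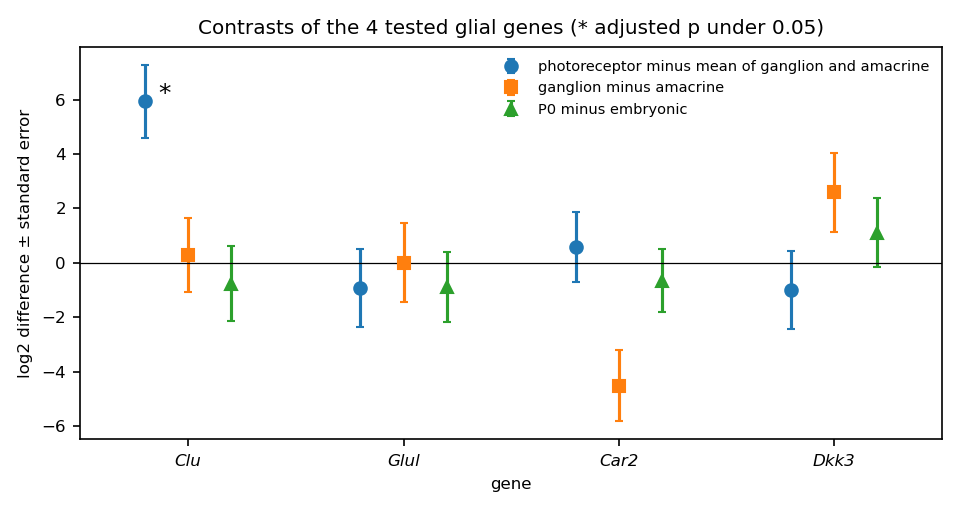
Log2 differences with standard errors for the 4 tested glial genes in 3 contrasts over 9 type-and-stage samples. Clu in photoreceptors (5.94, starred) passed, and Car2 in ganglion minus amacrine cells (-4.52) was the next largest.

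Sparc, a matrix glycoprotein of glia and vessels, was detected in ganglion cell E1 of E14.5 alone, by 2 of 3 probe sets, at 5099 and 2537. The highest reading by the first of these elsewhere was 225, in J6. Ganglion cell E1 of E14.5 also held 3 of 12 vascular and pericyte genes, Col4a2 at 1806, Kdr at 1368 and Igfbp7 at 1323, 5 of 7 lens genes and 3 of 6 blood genes, and the part of those cell types in its Sparc was not tested. The other E14.5 ganglion cell, D8, read 55.5 for Sparc with 5 lens genes and 2 blood genes.

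Apoe, Gfap and Aqp4 were not detected in any of the 22 cells at the deposited scale, as were 39.6% of all genes. Apoe, the main lipid carrier of glia, read at most 267, in E15.5 ganglion cell C7. Gfap, the astrocyte filament, reached 959 in the adult rod, just under the detection signal, and at most 107 elsewhere by the same probe set. Aqp4, the water channel of glial endfeet, reached 711 in J6. After quantile normalization C7, the cell with the fewest detected genes, read 1174 for Apoe and 1685 for Aqp4. With 1 probe set for Apoe and 3 each for the others, a low signal is not proof that the transcript was absent.

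To ask whether the genes changed with age, P0 was set against embryonic samples with cell type in the model, which rests on ganglion and amacrine cells. Clu was at -0.76 ± 1.36, Glul at -0.89 ± 1.28, Car2 at -0.65 ± 1.16 and Dkk3 at 1.11 ± 1.27, and no member passed (adjusted p = 1 for each in limma). No gene of the 7184 passed either (0%), with 284 at an unadjusted p under 0.05 in limma and 24 passing when each gene kept its own variance. Within ganglion cells the mean log2 of Glul was 9.11 at P0, against 10.90 over the embryonic stages, and in amacrine cells 10.81 at P0, against 10.27 at E16.5. Dkk3 was at 10.36 in amacrine cells of P0, against 7.64 in that of E16.5, a comparison of 5 cells with 1. Adult and newborn photoreceptors are 1 sample each, so no test was made: Clu was at 17.91 in the rod and 10.39 at P0, Car2 at 10.44 and 10.55, Dkk3 at 7.92 and 10.67, and Glul at 8.76 and 10.46. The P0 values average H1 with E1, which lay under the floor for each of these genes. Their SDs over the 2 cells were 3.88 for Clu, 4.11 for Car2, 4.27 for Dkk3 and 3.98 for Glul.

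All 16 further Müller glia genes were measured, and H1 held 4: the filament vimentin (Vim, 11382), the growth factor pleiotrophin (Ptn, 8016), and the inhibitors of differentiation Id3 (5418) and Id1 (4425). Of all genes 16.8% were detected in H1. Vim was detected in 14 of the 22 cells, Ptn in 12, and Id1 and Id3 in 5 each. Sox9 (37.8), Kcnj10 (714), Rgr (2.0), Car14 (230) and Dbi (626) were among the genes undetected in H1. The adult rod held 3 genes of this list, Id1 at 1462, Gpr37 at 1295 and Sox9 at 1237, and E1 held 1. The values of the rod lie near the detection level on an array with a raised median, where 13.8% of all genes were detected. The part of that median in them was not tested. In the remaining 20 cells, E1 included, the count ran from 1 to 6 with a median of 2, and the 6 were in ganglion cell E1 of E14.5. None of the 7 genes of this list that were tested passed in any of the 3 contrasts. Their median difference was -0.15 for photoreceptors, against -0.57 over all tested genes, and 0.84 for ganglion minus amacrine cells, against -0.06.

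Of 10 measured astrocyte genes, H1 held 3, Slc1a2 at 10583, Fabp7, the brain lipid-binding protein, at 7098, and Ndrg2 at 6303. Aldh1l1 (103), S100b (162), Gja1 (157) and Aldoc (23.9) were among those undetected in H1, where 16.8% of all genes were detected. The 20 cells other than H1 and the rod held 0 to 2. The adult rod, where 13.8% of all genes were detected, held 5. These were Aldoc, an aldolase, at 128309, Slc1a2 at 84066, Fgfr3 at 2341, Gja1 at 1315 and Pdgfra at 1064. Gja1 and Pdgfra lie near the detection level on this array with a raised median. Slc1a2, the glutamate transporter GLT-1, which is also known from retinal neurons, was detected in E1 too, at 13795. It was higher in photoreceptors by 7.11 ± 1.33 (adjusted p = 4.23e-05 in limma), the 1 of 3 tested genes of this list that passed there. It too entered the test through the photoreceptors, with 1 other cell at 1000, so its passing is likewise given as a description. With no filter its adjusted p was 0.0229 in limma. Without the adult rod the difference was 5.71, and with the mean over probe sets it was 1.82 and did not pass (adjusted p = 0.0531 in limma). In the other contrasts no gene of the list passed. Outside photoreceptors Slc1a2 was detected in ganglion cell E4 of E12.5 alone, at 1234.

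Genes shared by progenitors and newborn glia were held at 7 of 17 in H1, 4 in E1 and 3 in the adult rod. In the 20 cells other than H1 and the rod the count ran from 0 to 9. The share of all genes detected was 16.8% in H1, 12.3% in E1 and 13.8% in the rod. H1 had the cyclin Ccnd1 at 35330, Zfp36l1 at 18120, and the Sox factors Sox2 at 10393 and Sox8 at 3436. It also had the cell cycle inhibitor Cdkn1b at 3230, the homeobox factor Lhx2 at 2121 and Notch1 at 1860. Hes1 (32.1), Hes5 (20.9), Nes (24.4), Fgf15 (13.0) and Nfia (116) were among the genes of this list undetected in H1. The adult rod had Rax at 2627, Hes1 at 1330 and Notch1 at 1149, and Hes1 and Notch1 lie near the detection level on its array with a raised median. Of the 9 tested genes in this list none passed in any contrast, with medians of -0.02 for photoreceptors, 0.70 for ganglion minus amacrine cells and -0.90 for P0 minus embryonic samples.

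Markers of other cell types were read beside these values. In H1 microglia and macrophage, lens, blood, horizontal and bipolar genes were all undetected, with summed microglia and macrophage signals of 839 against 323 to 3154 in the 20 other cells without the rod. H1 held 1 of 12 vascular and pericyte genes, Kdr at 16485, 1 of 7 oligodendrocyte genes, 1 of 10 ganglion and 2 of 10 amacrine markers. The adult rod held 1 of 10 microglia genes, Csf1r at 1489, and 3 of 12 vascular genes at 1107 to 1357. Of 6 horizontal cell genes it held 3, Septin4 at 419128, Onecut1 at 1761 and Lhx1 at 1055. Of 10 amacrine markers it held 3, Gad1 at 9039, Barhl2 at 3884 and Slc32a1 at 3317. It also held 1 gene each of the ganglion, bipolar, blood and oligodendrocyte lists. The share of all genes detected was 13.8% in the rod and 16.8% in H1. The Csf1r, Lhx1 and vascular values of the rod lie near the detection level on an array with a raised median. Whether RNA of a second cell contributed to H1 or the rod was not tested.

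**Figure D5:**
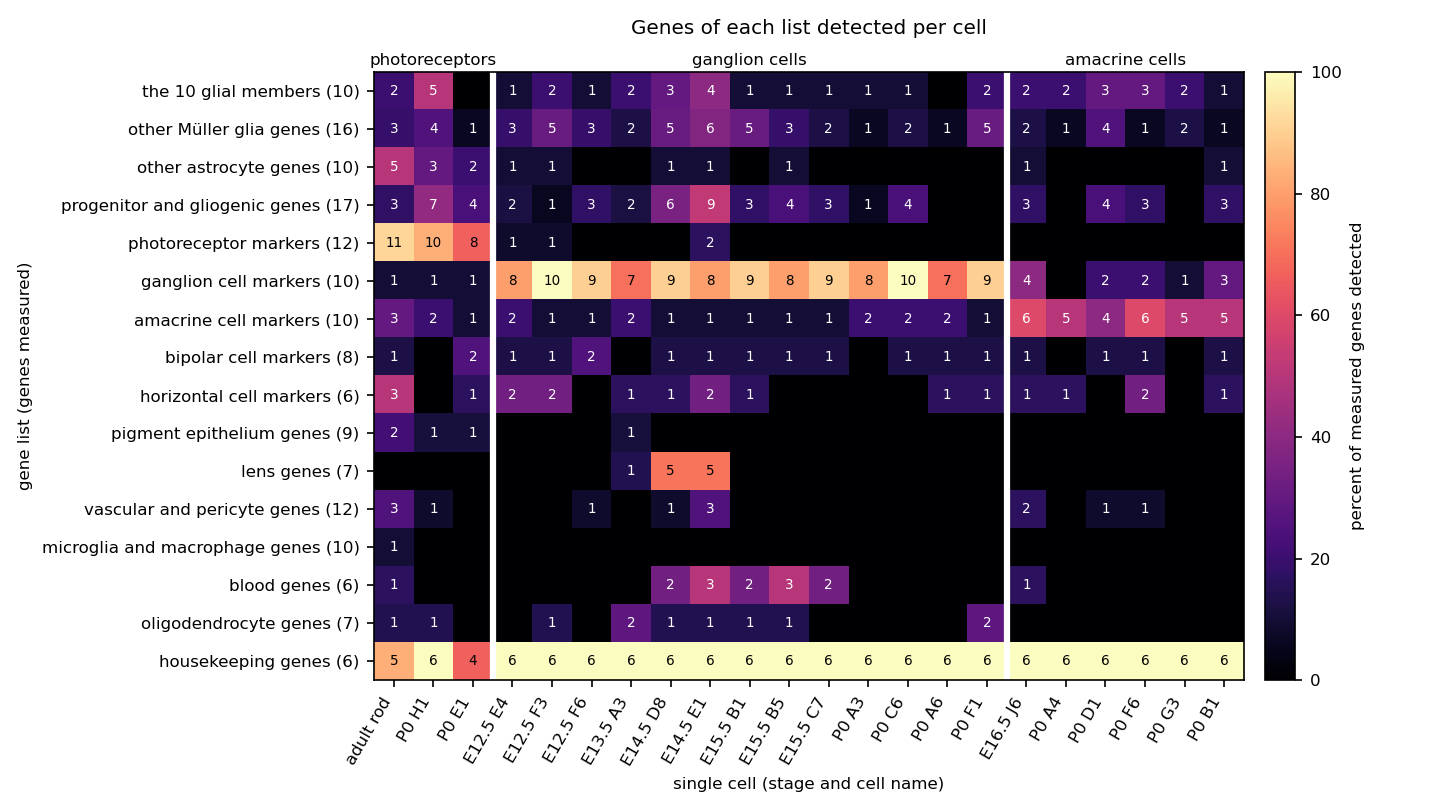
Percent of the measured genes of each list (rows, number measured in brackets) detected in each cell (columns), with the count printed. H1 combines 10 of 12 photoreceptor markers with 5 of 10 glial genes and 7 of 17 progenitor and gliogenic genes. The share of all genes detected in H1 was 16.8%.

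Members did not share one pattern over the cells. Among the 4 tested members the 6 pairwise Pearson correlations of log2 signal over 22 cells ran from -0.25 (Car2 and Dkk3) to 0.26 (Glul and Car2), and H1 is the cell that holds all 4. Dkk3 and Glul were both detected in 8 cells of the 19 that held either. The tested genes most like Clu were Mtif2, a mitochondrial translation factor (r = 0.92), Rgs9bp, an anchor of the rod protein that ends the light response (0.90), and Esf1 (0.88), which fell to 0.77, 0.69 and 0.66 over the 21 cells without the rod. Those most like Car2 were AI597479 (0.81), Fam160b1 (0.77) and Cdc25a, a cell cycle phosphatase (0.77). For Dkk3 they were Cherp (0.79), Tle5 (0.70) and Pnn (0.70), and for Glul Hcfc1 (0.71), Mllt6 (0.71) and Ctnnbl1 (0.69). The mean of the 10 members was most like Tgif2, a homeobox repressor (0.87), then Mettl16 (0.81), Flcn (0.80), Kmt2a (0.78), Mns1 (0.77), Nsrp1 (0.76), Uaca (0.75), Kdr (0.74), Adprm (0.73) and Rad1 (0.73). These correlations are descriptions over cells that differ in type, stage and array signal level.

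Genes detected in H1 and in no other cell were led by Crym, the thyroid hormone-binding crystallin mu, at 15369, then Tcaim (14997), Pdgfc, a platelet-derived growth factor (12317), Sorcs1 (11645), Trim12a (11354), Cthrc1 (10363), Htra1, a secreted protease (9806), Slc30a10 (9169), Nfe2l2, a factor of the oxidative stress response (8941), and Zfp365 (8866). Rlbp1 was the only one of the 10 glial genes among the 125. The adult rod had 939 genes of its own, 37.4% of those detected in it, with the highest signals for Guca1b (740952), Rcvrn (439030), Abca4 (392967), Ccdc113 (392836), Aipl1 (378522), Cdkn2c (362641), Pde6a (358397), Rtbdn (303893), Lrit2 (292786) and Gdf5 (252969). Guca1b, Rcvrn and Pde6a are known from the phototransduction cascade, and Cdkn2c is a cell cycle inhibitor. None of the 10 glial genes was among the 939. Of the further astrocyte and Müller glia genes, Aldoc (128309), Fgfr3 (2341), Gja1 (1315) and Sox9 (1237) were among them.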

How the data were processed

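Single mouse retinal cells were measured on Affymetrix arrays. The deposited values are signal intensity on a linear scale, computed by the authors with MAS5 per the submitters' processing notes; scanner settings are not given in these sources. By their values, 21 arrays had a 2% trimmed mean of 500, and that of P0 amacrine cell B1, at 18.1, was multiplied by 27.6. Precision is limited by how few arrays there are.

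Of 45101 probe sets, 34958 carried 1 symbol, 932 several and 9211 none; 34754 were matched to RefSeq by gene number. Signals were floored at 200 and log2 transformed, and the probe set with the highest mean stood for a gene. Genes at 1000 or more in at least 3 cells (7184) were tested over 9 type-and-stage means with limma 3.58.1 in R 4.3.3 (eBayes with trend, Benjamini-Hochberg threshold 0.05), which was tested on simulated data. The model had 1 mean per type, or type and stage class for P0 minus embryonic. Errors are standard errors of the contrast unless called SD. In the main fits between cell types limma gave full weight to the variance trend over all genes. Their standard errors and p-values therefore do not measure a gene's own spread between samples. For P0 minus embryonic samples they use both that spread and the trend.

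The members, 15 marker lists and rules were chosen with earlier results of these data known. Named were all members, of each list up to 6 genes detected in H1 or the adult rod, the 3 tested genes most like each tested member and the 10 most like the members' mean (Pearson), and the 10 genes of highest signal held by H1 or the rod alone. Genes of D1 and of E14.5 cell E1, and single list genes outside that rule, were chosen after their values were seen. Alternatives covered floor, probe sets, scaling, filter, variances, averaging, detection signal and leaving out cells. Figures were drawn with matplotlib 3.10.9.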

Additional observations from a re-analysis of the deposited data

Results flagged for a closer look

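In P0 amacrine cells the Slc1a3 signal of 5856 in cell D1 stood far from the other 4 cells, all under the floor of 200. In the same 5 cells Aqp4 was at 311 in D1 and under the floor in the other 4. In the 4 P0 ganglion cells Car2 was at 248 and Apoe at 217 in cell A6, and under the floor in the other 3. Of 10 gene and group pairs with any spread, 4 were so marked. Cells that share the floor have no spread of their own, so any single cell above it is marked, the usual chance rate of about 1 in 20 groups does not apply, and the last 3 values lie close to the floor.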

How the results depend on the processing

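Genes passing numbered 152 for photoreceptors, and 29 with the mean over probe sets, 56 with no filter, 100 with detection in 5 cells, 51 with gene-wise variances and 47 with medians over cells (44 to 161 leaving out single cells; 44 without J6, 66 without the adult rod). For ganglion minus amacrine cells the 5 became 1 with a floor of 400, 2 with the mean over probe sets, 10 after quantile normalization, 31 with no filter, 8 with gene-wise variances, 8 without H1 and the adult rod, and 0 in limma with medians over cells (263 at an unadjusted p under 0.05), and 1 to 9 leaving out single cells. For P0 minus embryonic samples the 0 became 101 with no filter and 24 with gene-wise variances, and ran from 0 to 60 leaving out single cells, 60 being without J6. Quantile normalization moved the median of all genes by 0.10 for ganglion minus amacrine cells. Glul for photoreceptors turned to 0.38 with the mean over probe sets (-2.34 to 0.48 leaving out cells). Glul for ganglion minus amacrine cells turned to 0.16 with a floor of 400, 0.033 with the mean over probe sets and 0.24 after quantile normalization (-0.27 to 0.22), and Clu there to -0.081 with a floor of 100. Leaving out cells, photoreceptor differences ran from 2.17 to 7.31 for Clu, -0.87 to 2.03 for Car2 (lowest without H1) and -2.51 to 0.51 for Dkk3, and Car2 at P0 from -1.05 to 0.078. Glial genes per cell became 2 at a detection signal of 500 in ganglion cells E4 and F6 of E12.5 and C6 of P0, and 2 by any probe set in F6. At 2000 they became 1 in D8, J6, F6 of P0 and the adult rod, and 0 in ganglion cell B1. After quantile normalization they became 2 in ganglion cell B1, 3 in C7 and 1 in J6, and 2 in F6 of P0. The adult rod had 3 at 500, by any probe set and after quantile normalization, and J6 and G3 had 3 at 500. Causes were not tested. A fit without a group's second sample assumes that the lone sample varies like the others. No paired analysis was possible because the labels give cell names but no number shared by design between groups.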
